A study of Homo sapiens with 8 samples.

Results

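The FGF receptor family was taken as the genes FGFR1, FGFR2, FGFR3, FGFR4 and FGFRL1, found in the deposited count table by their Ensembl identifiers. All 5 were present among the 37441 genes of the table, and all 5 passed the filter on low counts that left 18203 genes for testing. RNA had been sequenced from NCI-H1581 and NCI-H1703, lines grown from human non-small cell lung cancers, and from variants of both that had acquired resistance to CPL304110, an inhibitor of the FGF receptor kinases. There were 2 libraries for each of the 4 variants, and 8 in all. The libraries show how much RNA of each receptor the sensitive cells contained and whether that changed once the cells had become resistant.

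The sensitive variants, NCI-H1581 and NCI-H1703, were the parental lines. The resistant variants, NCI-H1581R and NCI-H1703R, came from them through stepwise exposure to CPL304110 that began at 50 nM and ended at 2.5 µM for NCI-H1581R and 5 µM for NCI-H1703R. A single resistant population is given for each line, so the effect of the inhibitor and any other difference between the populations cannot be told apart. Cells were collected a day after fresh medium was given, and the sources used here do not say whether that medium contained the inhibitor. The second replicate of a variant came from a repeat of the seeding and collection, and p-values therefore measure only the spread between repeats of the same population, which may be technical.

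FGF receptors sit in the cell membrane and bind fibroblast growth factors together with heparan sulphate chains. FGFR1 to FGFR4 are tyrosine kinases that, once bound and paired, phosphorylate adaptor proteins and switch on the RAS-ERK, PI3K and phospholipase C gamma routes. FGFRL1 binds the same ligands but has no kinase domain and is described as a decoy. Amplification of FGFR1 is a known alteration in squamous lung carcinoma, and alternative splicing of FGFR1 to FGFR3 sets which ligands they bind, which counts per gene cannot show.

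The libraries held between 33800389 and 40031710 counts each. The samples were cultured cell lines. Markers named after several cell types were checked by the number at or above 1 CPM (read counts scaled to library size) in both replicates of a variant. Of 5 epithelial markers 2 to 4 reached that level, with CDH1 below it in every variant. Of 4 mesenchymal markers 3 or 4 did, with VIM among them. Of 4 squamous markers at most 2 did, and of 4 markers of lung epithelium 1 or 2. Of 3 immune markers CD68 reached it in every variant, while PTPRC, CD3E and both endothelial markers stayed below it. The fibroblast markers COL1A1, COL1A2 and DCN summed to between 2150 and 2440 CPM in NCI-H1581, 1010 to 1030 CPM in NCI-H1581R and at most 27.6 CPM in NCI-H1703 and NCI-H1703R. The immune sum was 77.2 to 96.8 CPM in NCI-H1581 and 15.1 to 19.1 CPM in NCI-H1581R, so both sums were lower where FGFR1 and FGFR2 were. The epithelial and mesenchymal sums were lower in NCI-H1581R too. The epithelial markers that reached 1 CPM were 2 there and 4 in NCI-H1581. For the mesenchymal markers the numbers were 4 and 3, as FN1 reached 1 CPM in NCI-H1581R and not in NCI-H1581. The squamous sum of NCI-H1581R was higher, at 34.4 to 39 CPM against 7.49 to 8.01 CPM in NCI-H1581. Its lung epithelium sum was also higher, at 41.2 to 60.8 CPM against 15.3 to 17.3 CPM. In the other line the immune sum was 20.2 to 22.4 CPM in NCI-H1703 and 43.1 to 55.0 CPM in NCI-H1703R, where FGFR3 was higher. There the epithelial sum lay between 73.3 and 75.6 CPM in NCI-H1703 and between 6.76 and 8.41 CPM in NCI-H1703R. The squamous sum lay between 38.2 and 38.5 CPM and between 0.793 and 1.5 CPM. The mesenchymal sum was lower in NCI-H1703R too, while the lung epithelium sums overlapped. The fibroblast sum was higher in NCI-H1703R, at 23.3 to 27.6 CPM against 2.24 to 2.43 CPM in NCI-H1703. The part of these markers in the receptor results was not tested. In such bulk RNA, fewer cells that express a gene and less RNA per cell cannot be told apart.

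The receptors are related in sequence, and reads of 100 bp had to be assigned among them. In the reference coding sequences the 4 kinase receptors were identical at 66.2% to 74.6% of aligned bases in each pair, and FGFRL1 at 63.4% to 69.9% with each of the others. Over the whole reference transcripts, the longest run of identical bases was 31, between FGFR3 and FGFR4. It was at most 16 in any pair with FGFRL1, so no stretch as long as a read was shared. The coding sequences spanned 2466, 2463, 2418 and 2406 bases over 17 exons for FGFR1 to FGFR4, and 1512 bases over 6 exons for FGFRL1. The 90 bases below, from exon 12 of the MANE Select transcripts in the part that encodes the kinase domain, show how close FGFR2, FGFR3 and FGFR4 are, since these receptors changed so differently. They are given 5′ to 3′ on the coding strand from GENCODE v44 on GRCh38, at chr10:121498511-121498600 (minus strand), chr4:1805564-1805653 (plus strand) and chr5:177095335-177095424 (plus strand), with capitals at the 67 positions where all 3 have the same base.
FGFR2: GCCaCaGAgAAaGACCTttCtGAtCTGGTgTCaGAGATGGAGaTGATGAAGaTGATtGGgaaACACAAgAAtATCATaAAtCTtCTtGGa
FGFR3: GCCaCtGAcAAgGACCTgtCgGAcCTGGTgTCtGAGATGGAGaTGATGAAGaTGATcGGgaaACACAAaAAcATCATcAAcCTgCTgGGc
FGFR4: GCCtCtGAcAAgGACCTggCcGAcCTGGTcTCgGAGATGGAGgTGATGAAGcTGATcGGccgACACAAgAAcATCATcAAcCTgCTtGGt
The stretch was placed around the longest run shared by the coding sequences of FGFR2 and FGFR3, which was 23 bases. It was 74.4% identical across the 3 genes. FGFR3 also has processed and unprocessed pseudogenes, and the 4 listed in the table had 0 counts in the libraries except FGFR3P5, with 8 counts in NCI-H1581 replicate 1.

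FGFR1 was the receptor with the highest RNA level in NCI-H1703 and fell with resistance in both lines. It lies at chr8:38400215-38468834 on the minus strand of GRCh38. Counts in NCI-H1581 were 6982 and 6839, and in NCI-H1581R they were 1017 and 1383. Counts in NCI-H1703 were 31031 and 26898, and in NCI-H1703R they were 21044 and 21773. The replicates of the resistant variants lay below those of the sensitive variants in both lines, without overlap. As a level per length (CPM per kb of transcript, mean ± SD, n = 2 throughout), FGFR1 stood at 33.2 ± 4.52 in NCI-H1581, 5.46 ± 1.006 in NCI-H1581R, 144 ± 4.28 in NCI-H1703 and 99.3 ± 2.28 in NCI-H1703R. In order, NCI-H1581R was lowest, then NCI-H1581, NCI-H1703R and NCI-H1703, and no neighbours in this order overlapped.

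In NCI-H1581R, FGFR1 RNA was 6.02-fold lower than in NCI-H1581, a log2 fold change of -2.59 ± 0.21 (SE) with a 95% interval from -3.09 to -2.09 (edgeR's quasi-likelihood test, Benjamini-Hochberg adjusted p = 0.000629). In NCI-H1703R it was 1.42-fold lower than in NCI-H1703, a log2 fold change of -0.51 ± 0.10 (SE) with an interval from -0.74 to -0.27 (edgeR, adjusted p = 0.032). The fall in NCI-H1703R lost its call when NCI-H1703 replicate 1 or replicate 2 was left out, with adjusted p = 0.279 and 0.27 in edgeR, at log2 fold changes of -0.50 and -0.52. The fall was larger in NCI-H1581: the change with resistance in NCI-H1703 minus that in NCI-H1581 was 2.06 ± 0.23 (SE) on the log2 scale (edgeR interaction term, adjusted p = 0.000924). Exons of FGFR1 overlap LETM2 over 138 bases and a long non-coding RNA over 387 bases, both on the opposite strand, and the sources used here do not say whether the libraries kept strand, so reads from these stretches cannot be assigned with certainty.

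FGFR2 RNA was high in NCI-H1581 and low in the other variants. It lies at chr10:121478332-121598458 on the minus strand. Counts in NCI-H1581 were 6319 and 7232, against 189 and 38 in NCI-H1581R. NCI-H1703 had 513 and 104 counts, and NCI-H1703R had 385 and 183. NCI-H1581 alone was high, and the other 3 variants overlapped each other. The level per length was 39.8 ± 1.06 CPM per kb in NCI-H1581, 0.647 ± 0.62 in NCI-H1581R, 1.84 ± 1.65 in NCI-H1703 and 1.62 ± 0.818 in NCI-H1703R. Replicate 1 was 5.2-fold above replicate 2 in NCI-H1581R, 4.46-fold in NCI-H1703 and 2.11-fold in NCI-H1703R, but only 1.04-fold in NCI-H1581.

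Resistance in NCI-H1581 came with a 61.6-fold fall of FGFR2, with a log2 fold change of -5.95 ± 0.55 (SE) and an interval from -7.25 to -4.64 (edgeR, adjusted p = 0.0011). The size of the fall rested on the replicates of NCI-H1581R: it was -7.55 on the log2 scale without NCI-H1581R replicate 1 and -5.20 without NCI-H1581R replicate 2, and it kept its call in both. In NCI-H1703R, FGFR2 was not called different from NCI-H1703, at a log2 fold change of -0.16 ± 0.66 (SE) with a wide interval from -1.79 to 1.46 (edgeR, adjusted p = 0.94). Without NCI-H1703 replicate 1 the sign turned, to 1.28, and without NCI-H1703R replicate 2 it was 0.27. The change with resistance differed between the lines, by 5.76 ± 1 (SE) on the log2 scale (edgeR interaction term, adjusted p = 0.00849). Leaving out single libraries gave differences of 4.99 to 7.36.

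FGFR3 was the receptor whose RNA rose in NCI-H1703R. It lies at chr4:1793293-1808872 on the plus strand. NCI-H1581 had 104 and 131 counts and NCI-H1581R had 186 and 281. NCI-H1703 had 2491 and 1852 counts, and NCI-H1703R had 13653 and 11077. The resistant replicates were above the sensitive replicates in both lines. The level per length was 0.739 ± 0.0304 CPM per kb in NCI-H1581, 1.4 ± 0.361 in NCI-H1581R, 14.3 ± 1.97 in NCI-H1703 and 76.0 ± 11.3 in NCI-H1703R. No neighbours in that order overlapped, and NCI-H1703 stood 10.2-fold above NCI-H1581R.

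The rise in NCI-H1703R was 5.45-fold, with a log2 fold change of 2.45 ± 0.15 (SE) and an interval from 2.07 to 2.83 (edgeR, adjusted p = 0.00135). Among the 1286 genes called higher in NCI-H1703R, FGFR3 ranked 84 by fold change. Among the 1397 called lower there, FGFR1 ranked 1127. Among the 1354 called lower in NCI-H1581R, FGFR2 ranked 111 and FGFR1 408. In NCI-H1581R the log2 fold change of FGFR3 was 0.94 ± 0.32 (SE), with an interval from 0.16 to 1.71. It did not pass the threshold (edgeR, unadjusted p = 0.0244, adjusted p = 0.134). It passed when NCI-H1581R replicate 1 was left out, at a log2 fold change of 1.18 (edgeR, adjusted p = 0.0383). The change of FGFR3 in NCI-H1703 exceeded that in NCI-H1581 by 1.49 ± 0.32 (SE) on the log2 scale (edgeR interaction term, adjusted p = 0.0218).

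FGFR4, the receptor that pairs with the coreceptor KLB in the response to FGF19, differed between the lines but was not called with resistance in either. It lies at chr5:177086905-177098144 on the plus strand. Counts were 4904 and 4311 in NCI-H1581, 4867 and 3754 in NCI-H1581R, 1062 and 949 in NCI-H1703, and 1026 and 986 in NCI-H1703R. The replicates of NCI-H1581 and NCI-H1581R overlapped, and in the other line NCI-H1703R lay just under NCI-H1703 once scaled to library size. The level per length was 40.9 ± 8.66 CPM per kb in NCI-H1581, 36.3 ± 7.76 in NCI-H1581R, 9.23 ± 0.075 in NCI-H1703 and 8.59 ± 0.251 in NCI-H1703R. The log2 fold change was -0.16 ± 0.22 (SE) in NCI-H1581R, with an interval from -0.69 to 0.37 (edgeR, adjusted p = 0.723). In NCI-H1703R it was -0.07 ± 0.10 (SE), with an interval from -0.32 to 0.18 (edgeR, adjusted p = 0.737). The intervals leave room for changes of the size of the FGFR1 fall in NCI-H1703R only in NCI-H1581R.

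FGFRL1, the receptor without a kinase domain, varied least. It lies at chr4:1009936-1026898 on the plus strand, on the same chromosome arm as FGFR3. Counts were 1177 and 1199 in NCI-H1581, 797 and 973 in NCI-H1581R, 864 and 720 in NCI-H1703, and 696 and 576 in NCI-H1703R. Per length these were 9.51 ± 1.03, 6.73 ± 0.734, 6.58 ± 0.378 and 4.93 ± 0.663 CPM per kb. The resistant replicates lay below the sensitive ones in each line, while NCI-H1581R and NCI-H1703 overlapped. The log2 fold change was -0.49 ± 0.19 (SE) in NCI-H1581R, with an interval from -0.94 to -0.03, and did not pass the threshold (edgeR, adjusted p = 0.177). In NCI-H1703R it was -0.39 ± 0.14 (SE), with an interval from -0.74 to -0.04 (edgeR, adjusted p = 0.168). The NCI-H1581R value passed when NCI-H1581R replicate 2 was left out, at -0.62 (edgeR, adjusted p = 0.0635).

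**Figure D1:**
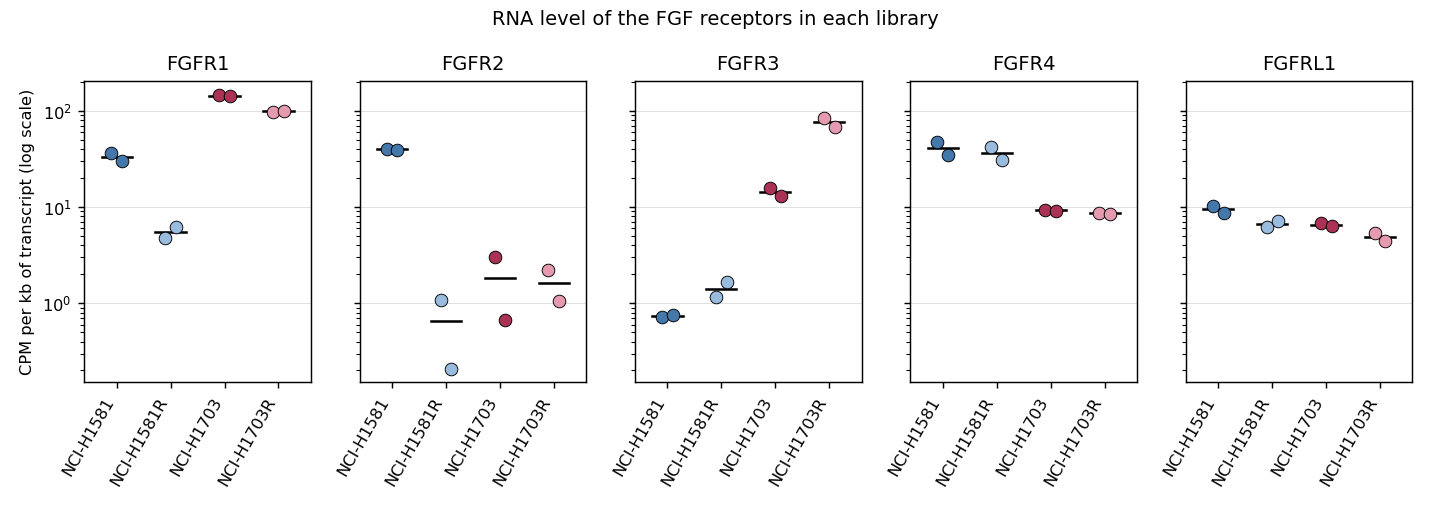
RNA level of each receptor in CPM per kb of the MANE Select transcript, on a log axis, with a point for each library, replicate 1 at the left, and a bar at the mean of the 2 replicates of each variant. FGFR2 is high in NCI-H1581 alone, FGFR3 rises from 14.3 to 76.0 between NCI-H1703 and NCI-H1703R, and FGFR4 separates the lines.

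Counted over the family, 2 of the 5 receptors were called lower in NCI-H1581R, where edgeR called 15.1% of all genes tested, 7.63% higher and 7.44% lower. In NCI-H1703R, FGFR1 was called lower and FGFR3 higher, 2 of 5, where edgeR called 14.7% of all genes, 7.06% higher and 7.67% lower. The median log2 fold change of the 5 receptors was -0.49 in NCI-H1581R and -0.16 in NCI-H1703R, beside 0.04 and 0.00 over all genes tested. The interaction term, the change in NCI-H1703 less that in NCI-H1581, was called and above 0 for FGFR1, FGFR2 and FGFR3, 3 of 5, beside 15.4% of all genes, 6.93% above and 8.47% below 0. It was 0.07 ± 0.27 (SE) for FGFR4 and 0.08 ± 0.23 (SE) for FGFRL1 on the log2 scale (edgeR, adjusted p = 0.968 and 0.932). The plot of the changes in both lines shows the FGFR2 fall as the farthest from 0, and its wide interval in NCI-H1703R.

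**Figure D2:**
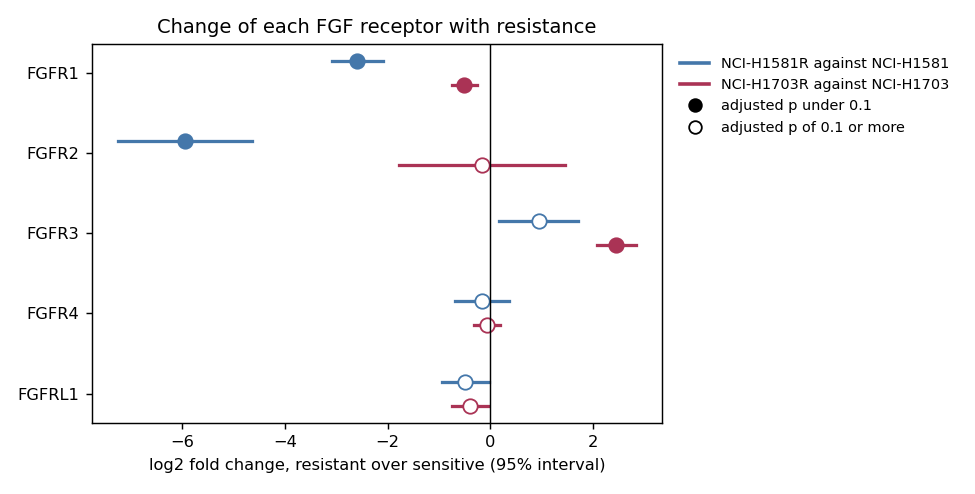
Log2 fold change of each receptor, resistant over sensitive, in NCI-H1581 (blue) and NCI-H1703 (red), with the 95% interval from edgeR as a line and a filled point where the adjusted p is under 0.1. The filled points are FGFR1 at -2.59 and -0.51, FGFR2 at -5.95 in NCI-H1581 and FGFR3 at 2.45 in NCI-H1703.

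Between the sensitive lines, all 5 receptors were called different, where 62.9% of all genes tested were, 32.5% higher and 30.4% lower in NCI-H1703. NCI-H1703 had more FGFR1 than NCI-H1581, with a log2 fold change of 2.12 ± 0.11 (SE), and more FGFR3, with 4.27 ± 0.17 (edgeR, adjusted p = 3.68e-06 and 1.12e-06). It had less FGFR2, with -4.41 ± 0.42, less FGFR4, with -2.14 ± 0.15, and less FGFRL1, with -0.53 ± 0.13 (edgeR, adjusted p = 8.25e-05, 1.84e-05 and 0.0103). The FGFR2 difference was -5.87 without NCI-H1703 replicate 1 and -3.75 without NCI-H1703 replicate 2. Between the resistant variants 3 of the 5 were called, with 52.5% of all genes called, 25.9% higher and 26.7% lower in NCI-H1703R. NCI-H1703R exceeded NCI-H1581R by 4.22 ± 0.21 (SE) on the log2 scale in FGFR1 and by 5.79 ± 0.28 in FGFR3, and was lower in FGFR4, at -2.04 ± 0.20 (edgeR, adjusted p = 0.000112, 9.04e-05 and 0.0011). FGFR2 was at 1.37 ± 0.74 (SE) and not called (edgeR, adjusted p = 0.193), but passed without NCI-H1581R replicate 1, at 2.92 (adjusted p = 0.054). FGFRL1 was at -0.41 ± 0.20 (SE) and not called (edgeR, adjusted p = 0.146), and passed without NCI-H1581R replicate 1, at -0.59 (adjusted p = 0.0833). These comparisons share libraries with those between sensitive and resistant cells and are not independent of them.

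The make-up of the receptor RNA differed among all 4 variants. Shares were taken of the summed CPM per kb of the 5 receptors, as a description without a test, since an exact permutation test of 2 against 2 libraries cannot go below p = 0.333. In NCI-H1581, FGFR4 held 32.8% ± 2.95 (SD), FGFR2 32.3% ± 3.11 and FGFR1 26.7% ± 0.363 of the sum, with 7.67% ± 0.108 in FGFRL1 and 0.601% ± 0.0983 in FGFR3. In NCI-H1581R, FGFR4 held 71.4% ± 6.48, FGFRL1 13.5% ± 3.13, FGFR1 11% ± 3.36, FGFR3 2.84% ± 1.07 and FGFR2 1.21% ± 1.08. The share of FGFR4 thus rose where its level was not called different, as FGFR1 and FGFR2 fell around it.

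In NCI-H1703, FGFR1 held 81.9% ± 1.45 of the sum, FGFR3 8.08% ± 0.733, FGFR4 5.25% ± 0.206, FGFRL1 3.74% ± 0.0379 and FGFR2 1.02% ± 0.886. In NCI-H1703R, FGFR1 held 52.3% ± 4.14 and FGFR3 39.8% ± 3.68, with 4.52% ± 0.123 in FGFR4, 2.58% ± 0.203 in FGFRL1 and 0.842% ± 0.382 in FGFR2. The level of FGFR1 per length was 9.41 and 10.96 times that of FGFR3 in the replicates of NCI-H1703, and 1.16 and 1.48 times in those of NCI-H1703R. In NCI-H1581 the level of FGFR4 was 1.29 and 1.16 times that of FGFR1, and in NCI-H1581R 8.82 and 5.00 times. The lines therefore differed in which receptor held most of the RNA once resistant, FGFR4 in NCI-H1581R and FGFR1 with FGFR3 in NCI-H1703R.

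The order within the sum depended on the length used. With the union of all annotated exons, which is 17201 bases for FGFR1 and 4848 for FGFR3, NCI-H1703R had 61.1% ± 3.47 in FGFR3 and 30.03% ± 3.45 in FGFR1, the reverse of the order above. With counts not divided by length, NCI-H1581 had most in FGFR1, at 35.3% ± 0.803, and then FGFR2, at 34.6% ± 3.01. In NCI-H1581R FGFR4 was the largest by each of these lengths, at 63.7% ± 7.49 to 72.9% ± 6.71, and in NCI-H1703 FGFR1 was, at 66.4% ± 1.64 to 87.2% ± 1.30.

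**Figure D3:**
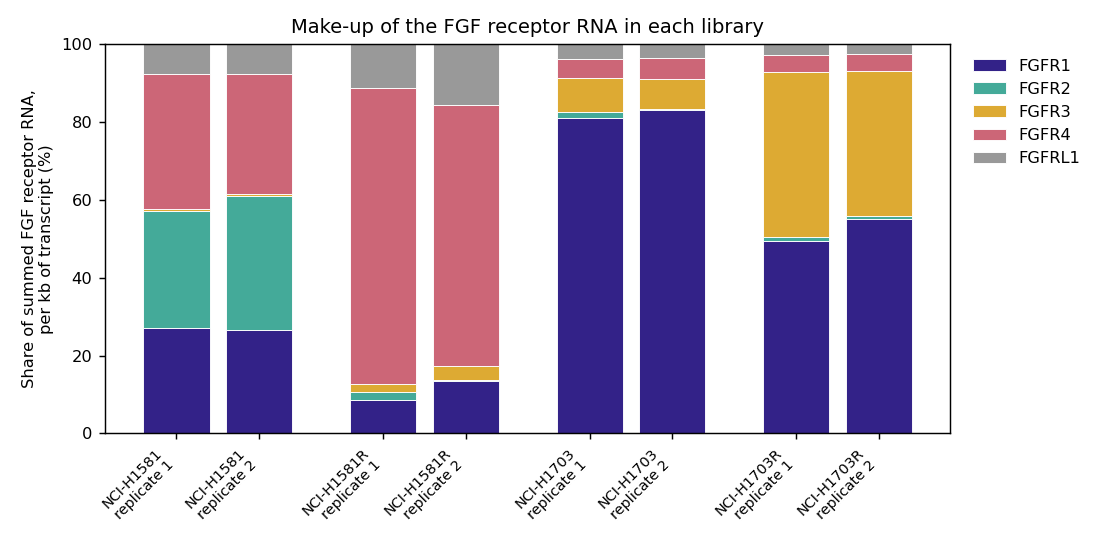
Share of each receptor in the summed FGF receptor RNA (percent, CPM per kb of the MANE Select transcript), as stacked bars for each of the 8 libraries. FGFR4 grows to 71.4% on average in NCI-H1581R, and FGFR3 from 8.08% in NCI-H1703 to 39.8% in NCI-H1703R.

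The sum over the 5 receptors was 134.9 and 113.4 CPM per kb in NCI-H1581 and 55.0 and 46.1 in NCI-H1581R, a log2 difference of the means of -1.30. In the other line it was 182.0 and 170.2 CPM per kb in NCI-H1703 and 197.9 and 182.8 in NCI-H1703R, a log2 difference of 0.11, so the lower resistant replicate lay just above the higher sensitive one. Within that sum, the mean of FGFR1 went from 144 to 99.3 CPM per kb and that of FGFR3 from 14.3 to 76.0. With the union of exons as length these log2 differences were -0.79 and 0.61, and with undivided counts -1.61 and 0.00.

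Genes with which the receptors work were described from lists, by how many tested genes were called and by the median log2 fold change, beside medians of 0.04 and 0.00 over all genes. Each count stands against the shares of all genes called, 7.63% higher and 7.44% lower in NCI-H1581R, and 7.06% higher and 7.67% lower in NCI-H1703R. Fits without NCI-H1703 replicate 1 or replicate 2 called only 293 and 274 of all 18203 genes, and those without NCI-H1581 replicate 1 or replicate 2 called 1160 and 1122, so few calls in a list there are few against a low background. Of 12 tested FGF ligands, 4 were called higher in NCI-H1581R, with a median of 1.8, and 1 was called lower in NCI-H1703R, with a median of -0.07. The median of 1.8 lay between FGF4, at 1.71, and FGF19, at 1.89. Neither was called, and their counts reached at most 13 and 12 in any library. With at least 10 counts required in each library compared, 5 ligands were left in NCI-H1581, 4 called higher and 1 lower, with a median of 2.02. In NCI-H1703 3 were left, 1 of them called lower, with a median of -0.49. FGF8 had 49 and 48 counts in NCI-H1581 but 5327 and 6614 in NCI-H1581R (edgeR, adjusted p = 4.16e-05). FGF7 had 0 counts in both NCI-H1581 libraries, and 62 and 49 in those of NCI-H1581R (edgeR, adjusted p = 0.0215). FGF5 dropped from 1786 and 1571 counts in NCI-H1703 to 8 and 3 in NCI-H1703R (edgeR, adjusted p = 0.000199). FGF7 is a ligand of the epithelial splice form of FGFR2. That receptor had 189 and 38 counts over all its splice forms in the same NCI-H1581R libraries. The other ligands called higher in NCI-H1581R were already present in NCI-H1581. FGF10 went from 2311 and 3148 counts to 11754 and 11346 (edgeR, adjusted p = 0.000854). FGF20 went from 1070 and 1111 counts to 3379 and 3235 (edgeR, adjusted p = 0.00234).

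Coreceptors and binding partners were called for 4 genes higher and 1 lower of 17 in NCI-H1581R, with a median of -0.32, and for 6 lower in NCI-H1703R, with a median of -0.46. The proteoglycan gene GPC3 rose in NCI-H1581R, from 1161 and 2168 counts to 36110 and 50124, at a log2 fold change of 4.66 ± 0.32 (SE; edgeR, adjusted p = 0.000354). The syndecan gene SDC4 fell there, at -1.91 ± 0.23 (SE; edgeR, adjusted p = 0.00341). FLRT2, which encodes a membrane protein that binds FGF receptors, rose in NCI-H1581R, at 3.76 ± 0.25, and fell in NCI-H1703R, at -4.22 ± 0.15 (SE; edgeR, adjusted p = 0.000313 and 0.000305). CDH2, or N-cadherin, a binding partner of FGFR1, went from 1857 and 1626 counts in NCI-H1703 to 41 and 44 in NCI-H1703R, at -5.42 ± 0.15 (SE; edgeR, adjusted p = 0.000199). These named genes kept their calls without any single library. The count of genes called lower in NCI-H1703R was 3 without NCI-H1703 replicate 1 and 3 without replicate 2, and in NCI-H1581R 5 were higher and 4 lower without NCI-H1581R replicate 2.

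Enzymes that build and trim heparan sulphate were called for 2 of 11 genes higher in NCI-H1581R, where 7.63% of all genes were, and for 2 higher and 3 lower in NCI-H1703R, where 7.06% and 7.67% were, with medians of -0.03 and -0.07. GLCE, the epimerase of heparan sulphate, rose in NCI-H1581R, at a log2 fold change of 2.21 ± 0.21 (SE; edgeR, adjusted p = 0.0014). SULF1, a sulphatase that removes sulphate groups from the chains, had 3 and 5 counts in NCI-H1581 and 23 and 42 in NCI-H1581R (edgeR, adjusted p = 0.0663), and was not called without NCI-H1581 replicate 1 or 2 or NCI-H1581R replicate 2, with adjusted p = 0.23, 0.228 and 0.16. In NCI-H1703R its relative SULF2 fell, at -2.93 ± 0.30, as did EXT1, a chain polymerase, at -0.89 ± 0.12 (SE; edgeR, adjusted p = 0.0047 and 0.0133). NDST2 and HS2ST1, which add sulphate groups, rose there, at 0.69 ± 0.17 and 0.44 ± 0.11 (SE; edgeR, adjusted p = 0.0668 and 0.0734). Without NCI-H1703 replicate 1 or replicate 2, edgeR called 0 of the 11 in NCI-H1703R (293 and 274 of all 18203 genes), with 4 and 3 at an unadjusted p under 0.05, while DESeq2 on all libraries called 2 higher and 3 lower. Without NCI-H1703R replicate 1, 2 were called lower.

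Of 19 tested adaptors and effectors next to the receptors, 4 were called higher and 2 lower in NCI-H1581R, with a median of 0.15, where 7.63% and 7.44% of all genes were. In NCI-H1703R 1 was higher and 1 lower, with a median of 0.08, where 14.7% of all genes were called. RPS6KA3, the gene of the kinase RSK2, and GRB14, an adaptor that binds activated FGF receptors, rose in NCI-H1581R, at 3.58 ± 0.22 and 4.4 ± 0.49 (SE; edgeR, adjusted p = 0.000249 and 0.00257). SHC1, an adaptor, fell there, at -0.88 ± 0.20 (SE; edgeR, adjusted p = 0.0423). The fall of SHC1 lost its call without NCI-H1581 replicate 1 or replicate 2, when 2 of the 19 were called higher, and 7 were higher and 3 lower without NCI-H1581R replicate 1. In NCI-H1703R the adaptor gene CRKL fell, at -0.56 ± 0.09, and PIK3CA, the catalytic subunit of PI3K, rose, at 0.52 ± 0.15 (SE; edgeR, adjusted p = 0.0205 and 0.0931). Without NCI-H1703 replicate 1 or replicate 2, edgeR called 0 of the 19 there (293 and 274 of all 18203 genes), with 2 and 4 at an unadjusted p under 0.05, and the call of PIK3CA was also lost without either NCI-H1703R replicate and with DESeq2, which called 1 higher and 2 lower.

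Feedback inhibitors of the pathway dampen its signalling, and several of them are induced by ERK signalling. Of 11 tested, 4 were called lower and 1 higher in NCI-H1581R, with a median of -0.58. In NCI-H1703R 8 were lower and 1 higher, with a median of -1.48. SPRY2, which restrains RAS activation, fell in both lines, at -2.70 ± 0.23 in NCI-H1581R and -3.62 ± 0.43 in NCI-H1703R (SE; edgeR, adjusted p = 0.000834 and 0.0082). DUSP6, a phosphatase of ERK, did so too, at -1.75 ± 0.17 and -2.33 ± 0.33 (SE; edgeR, adjusted p = 0.00134 and 0.0137). SPRED1 was lower at -1.15 ± 0.21 and -0.62 ± 0.13, and SPRED3 was higher in NCI-H1581R, at 0.67 ± 0.20, and lower in NCI-H1703R, at -1.48 ± 0.32 (SE; edgeR, adjusted p = 0.0174, 0.0444, 0.0975 and 0.0464). The rise of SPRED3 was not called with the replicate number as a block, RLE normalisation, no filter on low counts or legacy quasi-dispersions. Nor was it called in 1 fit of all 8 libraries or at an adjusted p under 0.05, while DESeq2 called it. SPRY1, of the same family as SPRY2, fell in NCI-H1703R, at -5.51 ± 0.39 (SE; edgeR, adjusted p = 0.00167). IL17RD, also called Sef, which acts at FGF receptors, fell in NCI-H1581R, at -2.02 ± 0.43, and rose in NCI-H1703R, at 0.69 ± 0.15 (SE; edgeR, adjusted p = 0.032 and 0.0451).

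Of these feedback genes, SPRY2, DUSP6, SPRED1, SPRED3 and IL17RD lost their calls in NCI-H1703R without NCI-H1703 replicate 1 or replicate 2, with adjusted p from 0.114 to 0.305 in edgeR, when 3 of the 11 were called lower. IL17RD also lost it without either NCI-H1703R replicate, and SPRED1 without NCI-H1703R replicate 1. In NCI-H1581R, 3 were called lower without NCI-H1581 replicate 1 and 2 without replicate 2, and the calls of SPRED1 and SPRED3 were lost in both fits, that of SPRED3 also without NCI-H1581R replicate 2 and that of IL17RD without NCI-H1581 replicate 2.

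Transcription targets of the ERK route were called for 2 genes lower of 9 in NCI-H1581R and for 4 lower and 1 higher in NCI-H1703R, with medians of -0.43 and -0.27. EGR1, an immediate early transcription factor, had 1607 and 2351 counts in NCI-H1581 and 59 and 43 in NCI-H1581R, at a log2 fold change of -5.32 ± 0.28 (SE; edgeR, adjusted p = 0.000127). It rose in NCI-H1703R, at 1.90 ± 0.19 (SE; edgeR, adjusted p = 0.00444). FOSL1, a partner in AP-1, fell in NCI-H1581R, at -3.05 ± 0.28 (SE; edgeR, adjusted p = 0.00107). ETV4, an ETS factor, and CCND1, or cyclin D1, fell in NCI-H1703R, at -3.39 ± 0.21 and -2.55 ± 0.13 (SE; edgeR, adjusted p = 0.00134 and 0.000795). Without NCI-H1703 replicate 1 or replicate 2, 2 of the 9 were called lower in NCI-H1703R and EGR1 was not called, with adjusted p = 0.124 and 0.111 in edgeR. In NCI-H1581R, 4 were called lower by DESeq2 and without either NCI-H1581R replicate.

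Regulators of receptor splicing gave calls that depended on the fit. ESRP1 and ESRP2, which promote the epithelial splice form of FGFR2, had at most 59 and 8 counts in any library. RBFOX2, a regulator of the same exons, had log2 fold changes of 0.16 ± 0.19 and -0.15 ± 0.08 (SE; edgeR, adjusted p = 0.673 and 0.328). Of the 7 tested, edgeR called 0 in either line, with 1 in each line at an unadjusted p under 0.05, and medians of -0.04 and -0.23. DESeq2 called 0 in NCI-H1581R and 1 lower in NCI-H1703R, and edgeR called 1 higher and 2 lower in NCI-H1581R without NCI-H1581R replicate 1. With the replicate number as a block, edgeR called 4 of the 7 lower in NCI-H1703R, RBFOX2 among them (adjusted p = 0.0998), where it called 6357 of all 18203 genes.

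**Figure D4:**
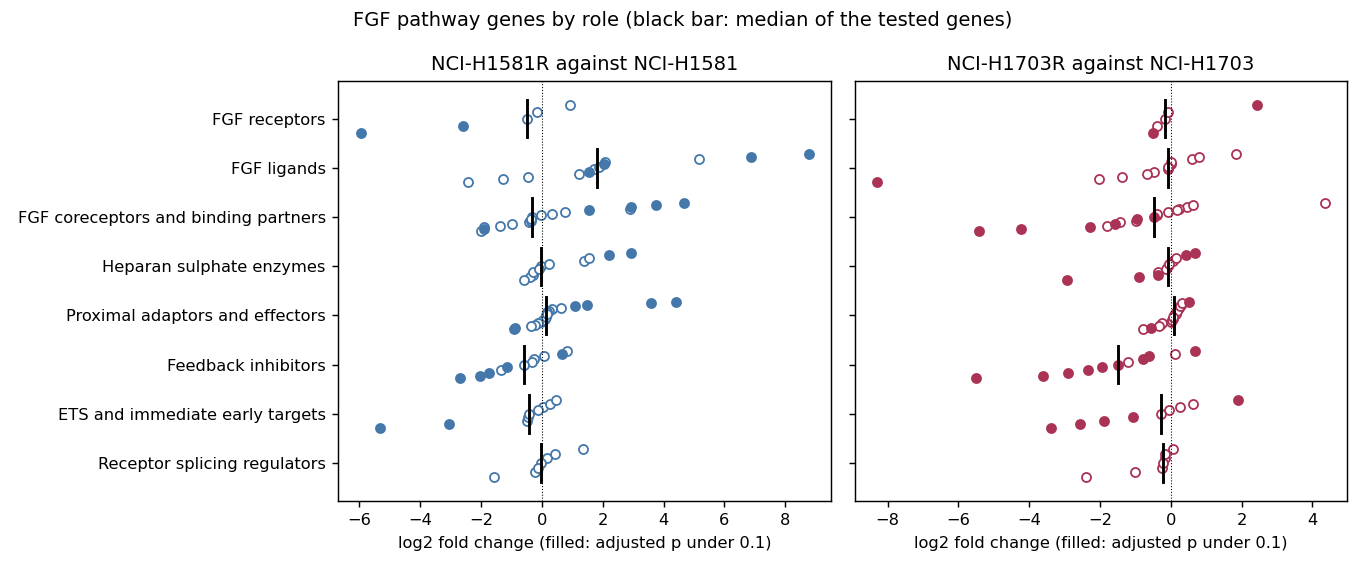
Log2 fold change with resistance of the tested genes of each list, NCI-H1581 at the left and NCI-H1703 at the right, with filled points where the adjusted p in edgeR is under 0.1 and a black bar at the median. The ligands, several of them at few counts, have a median of 1.8 in NCI-H1581R, and the feedback inhibitors a median of -1.48 in NCI-H1703R.

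Genes near the receptors were compared with them. Of 7 tested neighbours of FGFR1 in 8p11, 5 were called lower in NCI-H1581R and 6 in NCI-H1703R, with medians of -0.78 and -0.70. Of all genes tested, 7.44% and 7.67% were called lower. TACC1, NSD3, DDHD2, BAG4 and LSM1 were called lower in both lines, with log2 fold changes of -1.09 to -0.56 in NCI-H1581R and of -0.78 to -0.36 in NCI-H1703R. FGFR1 fell by 2.59 in NCI-H1581R, beyond every one of these neighbours, and fell by 0.51 in NCI-H1703R, within their range. Without NCI-H1581 replicate 1 or replicate 2, edgeR called 0 of the 7 in NCI-H1581R, with 4 and 2 at an unadjusted p under 0.05. Without NCI-H1703 replicate 1 or replicate 2 it called 0 in NCI-H1703R, with 6 and 5, while DESeq2 on all libraries called 5 and 6. Fits without a sensitive replicate called few of all genes, as given above, so losses of calls here and below stand against a low background. Over all fits that left out 1 library, the 5 genes had log2 fold changes of -1.38 to -0.51 in the first line and -0.83 to -0.26 in the second.

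Of 17 tested neighbours of the other receptors, 1 was called higher and 1 lower in NCI-H1581R, where 7.63% and 7.44% of all genes were. In NCI-H1703R 2 were higher and 3 lower, where 7.06% and 7.67% of all genes were. The medians were -0.01 and -0.02. The 5 neighbours of FGFR3 had log2 fold changes from -0.52 to 0.40 in NCI-H1703R, where FGFR3 itself stood at 2.45. The called genes among them were NSD2, at -0.52 ± 0.09, and TMEM129, at 0.40 ± 0.11 (SE; edgeR, adjusted p = 0.0244 and 0.0879). The 3 neighbours of FGFR2 ranged from -0.82 to 0.34 in NCI-H1581R, where FGFR2 stood at -5.95. Among them ATE1 was called lower, at -0.82 ± 0.18 (SE; edgeR, adjusted p = 0.0336). ATE1, TACC2 and WDR11 start at -330.3, -390.7 and 747.2 kb from the start of FGFR2 (positive downstream). The neighbours of FGFR3 are closer, with starts from -80.95 to 78.1 kb from that of FGFR3. Near FGFRL1, RNF212 rose in NCI-H1581R, at 0.66 ± 0.19, and fell in NCI-H1703R, at -2.32 ± 0.12 (SE; edgeR, adjusted p = 0.0851 and 0.000799), and GAK rose in NCI-H1703R, at 0.31 ± 0.09 (adjusted p = 0.0883). Of the calls named in NCI-H1703R, that of RNF212 alone held without NCI-H1703 replicate 1 or replicate 2, and those of TMEM129 and GAK were also lost without either NCI-H1703R replicate. Without NCI-H1581 replicate 1 or replicate 2, edgeR called 0 of the 17 in NCI-H1581R, with 1 and 1 at an unadjusted p under 0.05, while DESeq2 on all libraries called 1 higher and 1 lower.

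**Figure D5:**
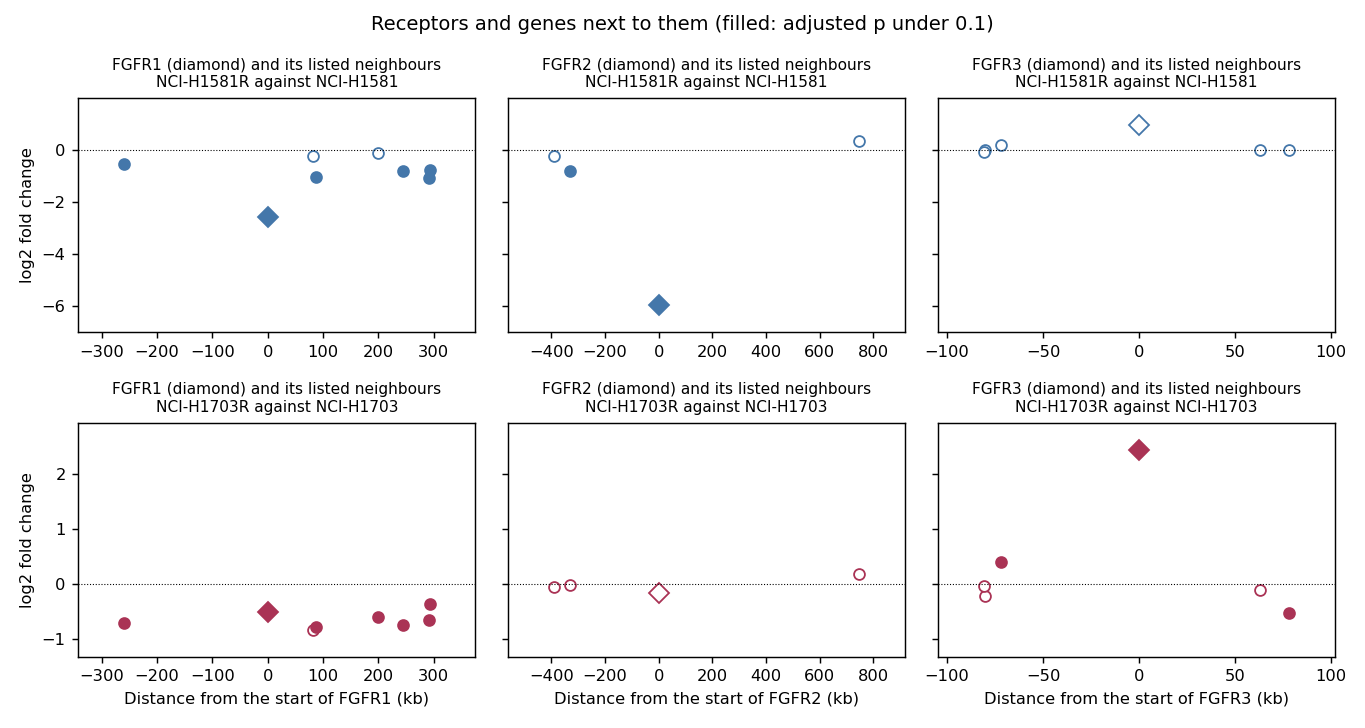
Log2 fold change with resistance of FGFR1, FGFR2 and FGFR3 (diamonds) and of their listed neighbours (circles) against the distance between gene starts in kb, positive downstream of the receptor, with NCI-H1581 above and NCI-H1703 below and filled symbols where the adjusted p in edgeR is under 0.1. FGFR2 at -5.95 in NCI-H1581R and FGFR3 at 2.45 in NCI-H1703R stand away from their neighbours, and FGFR1 at -0.51 in NCI-H1703R lies among its own.

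The genes with the nearest profile over the 8 libraries were found for each receptor. Likeness was taken as the root mean square difference of the centred log2 CPM profiles, among 12643 genes with a mean of at least 1 CPM, and is a description in which line and variant account for most of each profile. This difference is smaller for receptors whose own level varies less, so it does not rank the receptors against each other. The nearest genes were LINC01145 at 0.11, SFT2D3 at 0.13 and H2AC25 at 0.13 for FGFR4, and FLVCR1 at 0.10, ANKRD13B at 0.11 and NUP210 at 0.12 for FGFRL1. The profile of FGFR1 was nearest to those of USP43 at 0.24, RASA3 at 0.24 and STARD8 at 0.29. Those nearest to FGFR3 were FHIT at 0.39, GBP3 at 0.39 and KLHL29 at 0.45, whose log2 fold changes in NCI-H1703R were 1.55, 2.13 and 1.55. Those nearest to FGFR2 were BST2 at 0.85, GALNT3 at 0.89 and RORA at 0.89, whose log2 fold changes in NCI-H1581R were -5.65, -5.35 and -6.14. All were chosen by profile, so these log2 fold changes follow from the choice and are no separate result. BST2, GALNT3 and RORA had means of at least 1 CPM in NCI-H1581 alone. FHIT, GBP3 and KLHL29 had such means in NCI-H1703 and NCI-H1703R alone.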

How the data were processed

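Paired reads of 100 bp from 8 libraries were quantified with Salmon against GRCh38 (the submitters' processing notes also name cutadapt, without its settings) and summed to genes with tximport by the authors, who deposited estimated counts per gene as whole numbers, without normalisation. The versions, the transcript annotation, the tximport scaling and the strandedness are not given in the sources used here. Totals ranged from 33800389 to 40031710 counts, and 15136 genes had 0 counts in all libraries. All 8 columns were used. Groups and replicate numbers came from the labels. Replicates of a variant differed by more than sampling noise (chi-square over its degrees of freedom, 23.3 to 96.8).

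Log2 fold changes and two-sided p-values came from edgeR 4.0.16 (TMM, quasi-likelihood test with adjusted deviances) in R 4.3.3, fitted to the 4 libraries of each comparison over the 18203 genes with at least 10 counts in total. A gene was called at a Benjamini-Hochberg adjusted p under 0.1. The difference between the lines was an interaction term over all 8 libraries. The standard error was the log2 fold change over the square root of the F statistic, and 95% intervals used its degrees of freedom. CPM used TMM factors over all 8 libraries, with MANE Select transcript lengths of GENCODE v44 for levels per kb. Intervals do not cover errors of read assignment. Scripts were tested on simulated data.

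The replicate number as a block was 1 alternative, since the labels do not say whether a number marks cells handled together. Other alternatives were DESeq2 1.42.0, RLE normalisation, other filters on low counts, 1 fit of all 8 libraries, an adjusted p under 0.05, other lengths or no FGFRL1 for shares and sums, library totals in place of TMM, leaving out each replicate and, chosen after seeing the data, legacy quasi-dispersions.

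The receptors and gene lists were chosen with earlier results of these data known. Named besides the receptors were, per list and line, the called genes with the 2 largest rises and falls, genes called in both lines, DUSP6, ESRP1, ESRP2 and RBFOX2, and the 3 genes with the profile nearest to each receptor. FGF10 and FGF20 were added so that every ligand called higher in NCI-H1581R is named. Some genes of this rule are given by counts only, and 1 is not reported here. Copy number data were not used here. Figures were drawn with matplotlib 3.10.9, and coding sequences were aligned with Biopython 1.88.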

Additional observations from a re-analysis of the deposited data

Results flagged for a closer look

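The sensitive to resistant change was unequal in the lines for 3 receptors, by the interaction term over all 8 libraries in edgeR. The values are the change in NCI-H1703 minus that in NCI-H1581 on the log2 scale. FGFR1 differed by 2.06 ± 0.23 (SE; adjusted p = 0.000924), as it fell in both lines and more in NCI-H1581. FGFR2 differed by 5.76 ± 1 (SE; adjusted p = 0.00849), with a change of -5.95 in NCI-H1581R and no call in NCI-H1703R. FGFR3 differed by 1.49 ± 0.32 (SE; adjusted p = 0.0218), with a rise of 2.45 in NCI-H1703R and no call in NCI-H1581R.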

How the results depend on the processing

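The calls of FGFR1 and FGFR2 in NCI-H1581 and of FGFR3 in NCI-H1703 held under every alternative run. At an adjusted p under 0.05 the genes called numbered 1793 in NCI-H1581 and 1640 in NCI-H1703, beside 2743 and 2683. In 1 fit of all 8 libraries they numbered 4539 and 1730, and FGFR3 and FGFRL1 passed in NCI-H1581, at 0.93 (adjusted p = 0.0432) and -0.50 (0.0666). FGFR3 also passed there at 0.92 (0.0977) when each library had to hold 10 counts of a gene. Whether same-numbered replicates were handled together is not stated: over 12102 genes their deviations correlated at 0.0627 (NCI-H1581) and 0.206 (NCI-H1703), and at -0.319 to -0.0523 across lines. With the replicate block 6357 genes were called in NCI-H1703 and 3293 in NCI-H1581, FGFRL1 passed in NCI-H1703 at -0.39 (0.0237) and FGFR2 between the resistant variants at 1.57 (0.0442), and no other receptor changed its call. In NCI-H1703 the block called 3 ligands lower, 5 adaptors higher and 3 lower, 4 splicing regulators lower, and 6 neighbours of the other receptors higher and 4 lower. Without each replicate in turn, with the lone library assumed to vary like the others, calls ranged from 1122 to 5186 in NCI-H1581, from 274 to 1686 in NCI-H1703, from 6120 to 10361 between the resistant variants and from 1571 to 4141 for the difference between the lines. The lowest came without a sensitive replicate in each line, and the highest in NCI-H1581 without NCI-H1581R replicate 1. The log2 fold changes then ranged from -0.53 to -0.48 for FGFR1 and from -0.83 to 1.28 for FGFR2 in NCI-H1703, and in NCI-H1581 from 0.62 to 1.18 for FGFR3, from -0.39 to 0.05 for FGFR4 and from -0.62 to -0.37 for FGFRL1. The difference between the lines ranged from -0.16 to 0.30 for FGFR4 and from -0.07 to 0.21 for FGFRL1. The share of FGFR1 with undivided counts was 35.3%, 18.0%, 87.2% and 60.1% in NCI-H1581, NCI-H1581R, NCI-H1703 and NCI-H1703R, and with the union of exons 19.9%, 5.78%, 66.4% and 30.03%. Leaving out FGFRL1 gave 28.9% (NCI-H1581) and 85.1% (NCI-H1703). The log2 change of the sum was -1.61 and 0.00 with undivided counts and -0.79 and 0.61 with the union of exons. Of 312 values of other named genes, FGF10 and FGF20 aside, 230 kept their call and 82 lost it with the same sign. The causes of these differences were not tested. FGFR2 differed between replicates by 2.11- to 5.20-fold in NCI-H1581R, NCI-H1703 and NCI-H1703R, which limits its precision. Counts of FGFR3 in NCI-H1581 were low.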
